A study of Homo sapiens with 36 samples.

Results

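The D-type cyclins and their kinase partners are 5 genes, CCND1, CCND2, CCND3, CDK4 and CDK6, out of the 29872 genes measured. They were chosen by symbol, as the genes encoding the complex that the study's compounds target. Earlier results of these data were known at the time of the choice. All 5 genes were found in the expression table.

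A D-type cyclin binds CDK4 or CDK6, and the active complex phosphorylates the retinoblastoma protein (RB), which releases E2F transcription factors and lets a cell pass from G1 into S phase. The 3 cyclins are encoded by separate genes that mitogens and lineage factors switch on to different degrees in different tissues. In prostate cancer cells, as in other tissues, the RB pathway sits between the growth signal and the decision to divide. Inhibitors of this class occupy the ATP pocket of the kinase. They act on the protein, so the transcript levels described here are a readout of the treated cells and not a measure of how well the kinase was blocked.

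RNA sequencing was carried out on LNCaP cells, a line from a prostate carcinoma metastasis that carries functional RB. The 6 treatments were vehicle, AU2-94 at 1 or 2 µM, atirmociclib at 1 or 2 µM and ribociclib at 2 µM. The labels list the vehicle with a dose of 2 µM, no vehicle is given for 1 µM, and both doses were compared with this 1 vehicle group of their time. Each treatment ran for 24 or 72 h, which gave 12 groups of 3 libraries and 36 libraries in all. AU2-94 and atirmociclib are described as CDK4-selective, ribociclib as an inhibitor of CDK4 and CDK6. The labels give no genetic change and no second agent in any group, and ribociclib was used at 1 dose only. The wells for 72 h were seeded with fewer cells than those for 24 h, so time and seeding density vary together and cannot be told apart. One cell line stands for prostate cancer here.

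Library totals ran from 20675156 to 22692555 normalised counts, a ratio of 1.10. The 7 prostate luminal markers KLK3, KLK2, TMPRSS2, FOLH1, HOXB13, KRT8 and KRT18 were present in all 36 libraries, with KLK3 at 19802 or more in each. Of 12 markers of basal, fibroblast, haematopoietic and endothelial cells, 9 were at 0 in 22 to 35 libraries each and never above 7.09, which left KRT14, COL1A1 and VWF detected throughout. The luminal marker sum moved with treatment. It was 68839 to 72435 normalised counts in vehicle against 90135 to 100551 in treated libraries at 24 h, with 66469 to 67784 against 103244 to 130539 after 72 h. The basal sum, nearly all KRT14, moved too (4.35 to 21.3 against 23.2 to 60.0, then 4.73 to 25.2 against 39.3 to 88.6). The fibroblast sum, nearly all COL1A1, ran from 389 to 512 in vehicle and from 194 to 405 in treated libraries at 24 h and overlapped after 72 h, the endothelial sum overlapped at both times, and the haematopoietic sum never exceeded 8.37. Their part in the results for the cyclin and kinase genes was not tested.

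In the genome build GRCh38, CCND1 lies on chromosome 11 (69641156 to 69654474, plus strand) and CCND2 on chromosome 12 (4269771 to 4305353, plus strand). CCND3 lies on chromosome 6 (41934934 to 42050357, minus strand). CDK4 is on chromosome 12 (57747727 to 57756013, minus strand) and CDK6 on chromosome 7 (92604921 to 92836573, minus strand). Of the 5 genes, 3 had a promoter in the RefSeq table (GRCh38.p14), and the 250 bases before the main start site of CDK4 and CCND3 are shown because CCND3 was the cyclin lower than vehicle under every treatment and CDK4 the kinase lower in 3 of 5 treatments at 72 h and in none at 24 h. The CDK4 window is chr12:57752311-57752560 and the CCND3 window chr6:41941809-41942058, both printed 5′ to 3′ on the minus strand. Capitals mark the E-box CACGTG, the site read by MYC and related factors.
CDK4: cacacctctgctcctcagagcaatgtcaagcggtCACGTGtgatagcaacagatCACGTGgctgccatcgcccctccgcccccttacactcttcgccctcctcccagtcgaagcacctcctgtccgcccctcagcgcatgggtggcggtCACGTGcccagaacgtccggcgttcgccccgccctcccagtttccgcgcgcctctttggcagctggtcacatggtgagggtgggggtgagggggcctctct
CCND3: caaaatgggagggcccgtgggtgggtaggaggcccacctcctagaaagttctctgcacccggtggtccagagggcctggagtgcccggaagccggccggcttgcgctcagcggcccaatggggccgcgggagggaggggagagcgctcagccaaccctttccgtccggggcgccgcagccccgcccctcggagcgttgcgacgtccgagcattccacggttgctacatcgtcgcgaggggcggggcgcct

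The CDK4 window held 3 E-boxes, which began 216, 196 and 101 bases before the start, and 6.32% of 34943 promoter windows of the same length held at least 1. Neither window held any of the other letters searched on both strands, namely E2F sites (TTTCCCGC, TTTCGCGC, TTTGCCGC or TTTGGCGC, in 2.77% of windows), the CHR element TTTGAA (13.4%), the AP-1 site TGACTCA (4.22%) and the CRE TGACGTCA (1.63%). The CDK6 window, not shown, held none of the 5 motifs either. A match of letters is a description and not a shown binding site.

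Compared per kilobase of exon, CCND1 was the highest of the 5 transcripts in each of the 36 libraries, followed by CDK4 and then CCND3. CDK6 and CCND2 were the lowest, with CDK6 above CCND2 in 35 libraries. The medians over all libraries were 2288 normalised counts per kilobase for CCND1, 736 for CDK4, 124 for CCND3, 2.57 for CDK6 and 0.0819 for CCND2. The same order held with the length of the main transcript in place of all exons. CCND1 and CDK4 were thus the most abundant cyclin D and kinase transcripts of LNCaP cells with or without an inhibitor, and CCND3 was the second cyclin. The exception in the order was a library of AU2-94 1 µM at 72 h.

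**Figure D1:**
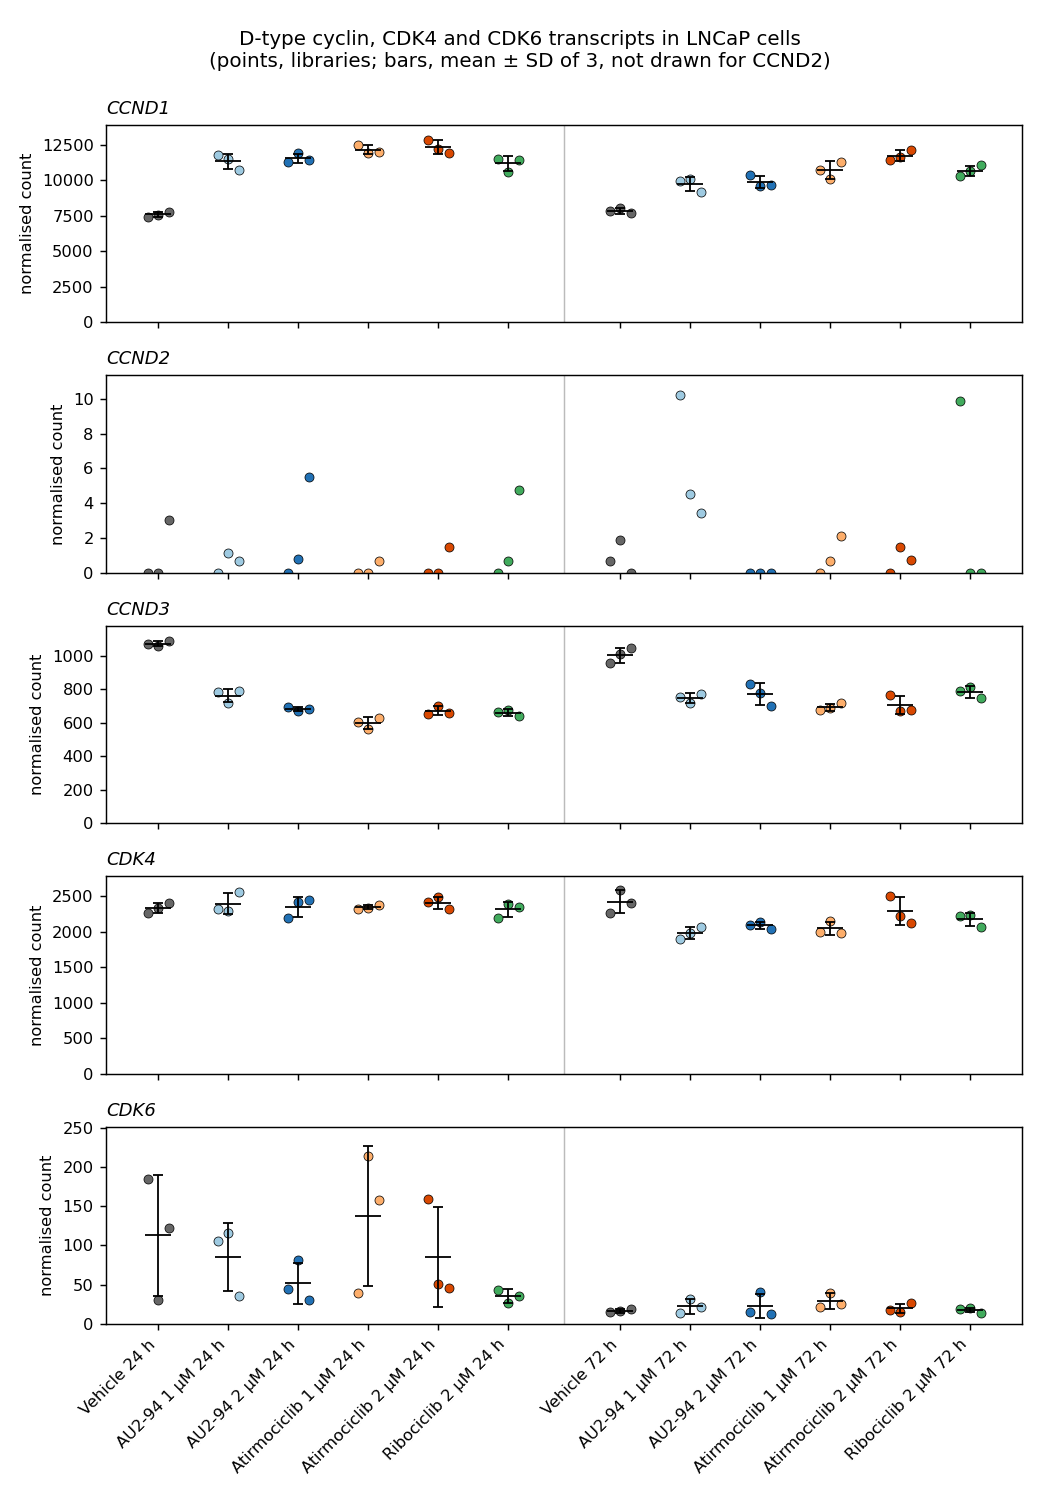
Normalised count (linear axis from 0, different range for each gene) of CCND1, CCND2, CCND3, CDK4 and CDK6 in the 12 groups, with 1 point per library and bars for the mean ± SD of 3 (no bars for CCND2, which is mostly at or near 0). Treated libraries sit above vehicle for CCND1 and below it for CCND3 at both times, CDK4 is lower in most treated libraries at 72 h only, and CDK6 is scattered at 24 h.

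CCND1, which encodes cyclin D1, rose under every treatment at both times. At 24 h the vehicle libraries held 7440, 7547 and 7791 normalised counts. AU2-94 gave 11756, 11472 and 10739 at 1 µM and 11266, 11900 and 11420 at 2 µM. Atirmociclib gave 12502, 11920 and 11992 at 1 µM and 12842, 12218 and 11932 at 2 µM, and ribociclib gave 11518, 10554 and 11452. Each treated library lay above each vehicle library. Here and below, the share of all genes whose treated and vehicle libraries do not overlap was not computed. The rise over vehicle ran from 0.56 (ribociclib) to 0.70 (atirmociclib 2 µM) on the log2 scale, or 1.47-fold to 1.62-fold, with an SE of 0.0434 (limma, adjusted p between 4.34e-10 and 1.54e-08). Fold changes are on the log2(normalised count + 1) scale, and a change means an adjusted p of at most 0.05. These are relative levels in bulk RNA, so more or fewer cells holding a transcript and more or less of it per cell cannot be told apart.

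At 72 h the CCND1 vehicle values were 7840, 8064 and 7657, close to those at 24 h. AU2-94 gave 9973, 10089 and 9168 at 1 µM and 10358, 9604 and 9677 at 2 µM. Atirmociclib gave 10738, 10083 and 11298 at 1 µM and 11396, 11642 and 12135 at 2 µM, and ribociclib gave 10327, 10628 and 11047. The treated and vehicle libraries again did not overlap. The rise was between 0.31 (AU2-94 1 µM) and 0.58 (atirmociclib 2 µM) on the log2 scale, 1.24-fold to 1.49-fold (SE 0.0483, adjusted p between 1.66e-08 and 7.42e-05). As background, the share of all tested genes called higher than vehicle at 24 h was 14.3% with AU2-94 1 µM, 16% with AU2-94 2 µM, 16.6% with atirmociclib 1 µM, 18.6% with atirmociclib 2 µM and 16.8% with ribociclib. The shares at 72 h, in the same order, were 15.4%, 14.2%, 20%, 20.9% and 15.5%. A rise under all 5 treatments was seen for 9.2% of genes at 24 h and 8.54% at 72 h. In the order of the 12 group means, CCND1 was highest with atirmociclib 2 µM at 24 h (12331 ± 465, SD, n = 3) and lowest in vehicle at 24 h (7593 ± 180), and the only neighbours whose libraries did not overlap were AU2-94 1 µM at 72 h (9744 ± 501) and vehicle at 72 h (7854 ± 204). The 5 treatments of a time point share their 3 vehicle libraries, so they are not independent of one another. LTO1, a neighbour on the other strand, overlaps 10.4% of the CCND1 exon bases. It lay between 229 and 389 normalised counts in every library. LTO1 was lower than vehicle in 1 of 5 treatments at 24 h and in 0 of 5 at 72 h, beside 13.5% to 16.2% and 15.3% to 19.8% of all genes. Whether LTO1 reads enter the CCND1 values was not tested.

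CCND3, which encodes cyclin D3, moved the other way and fell under every treatment at both times. At 24 h vehicle held 1066, 1056 and 1085 normalised counts. AU2-94 gave 784, 714 and 786 at 1 µM and 692, 671 and 681 at 2 µM. Atirmociclib gave 602, 560 and 628 at 1 µM and 652, 700 and 656 at 2 µM, and ribociclib gave 663, 677 and 637. No treated library reached the vehicle range, and atirmociclib 1 µM was the lowest of the 12 groups (597 ± 34.0) and did not overlap the next. The log2 fold change ran from -0.84 (atirmociclib 1 µM) to -0.49 (AU2-94 1 µM), which left 0.558 to 0.712 of the vehicle level (SE 0.063, adjusted p between 6.37e-09 and 1.17e-05).

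At 72 h CCND3 in vehicle was 954, 1008 and 1045. AU2-94 gave 755, 715 and 771 at 1 µM and 831, 777 and 701 at 2 µM. Atirmociclib gave 676, 686 and 717 at 1 µM and 765, 668 and 678 at 2 µM, and ribociclib gave 790, 815 and 745. All 15 treated libraries were below the lowest vehicle library. The log2 fold change was between -0.53 (atirmociclib 1 µM) and -0.35 (ribociclib; SE 0.0743, adjusted p between 1.38e-05 and 0.00122). Among all tested genes, 13.5% (AU2-94 1 µM), 14.9% (AU2-94 2 µM), 15.4% (atirmociclib 1 µM), 16.2% (atirmociclib 2 µM) and 15.2% (ribociclib) were lower than vehicle at 24 h. The same treatments gave 17%, 15.3%, 19.8%, 19.6% and 15.4% at 72 h, with 7.82% of genes lower under all 5 at 24 h and 8.59% at 72 h. In the order of group means, CCND3 in vehicle at 24 h (1069 ± 14.9) and in vehicle at 72 h (1002 ± 45.8) did not overlap each other or the treated groups. The treated groups from ribociclib at 72 h (783 ± 35.2) down to ribociclib at 24 h (659 ± 20.7) overlapped their neighbours.

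None of the changes in CCND1 or CCND3 reached an absolute log2 fold change of 1, the size that the study's own call also requires. With that size added to the limma call used here, 4%, 5.03%, 5.72%, 6.08% and 5.05% of genes were called at 24 h in the treatment order above, and 4.38%, 3.86%, 6.74%, 7.54% and 4.49% at 72 h. The study's own numbers of called genes came from DESeq2 and differ from these.

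**Figure D2:**
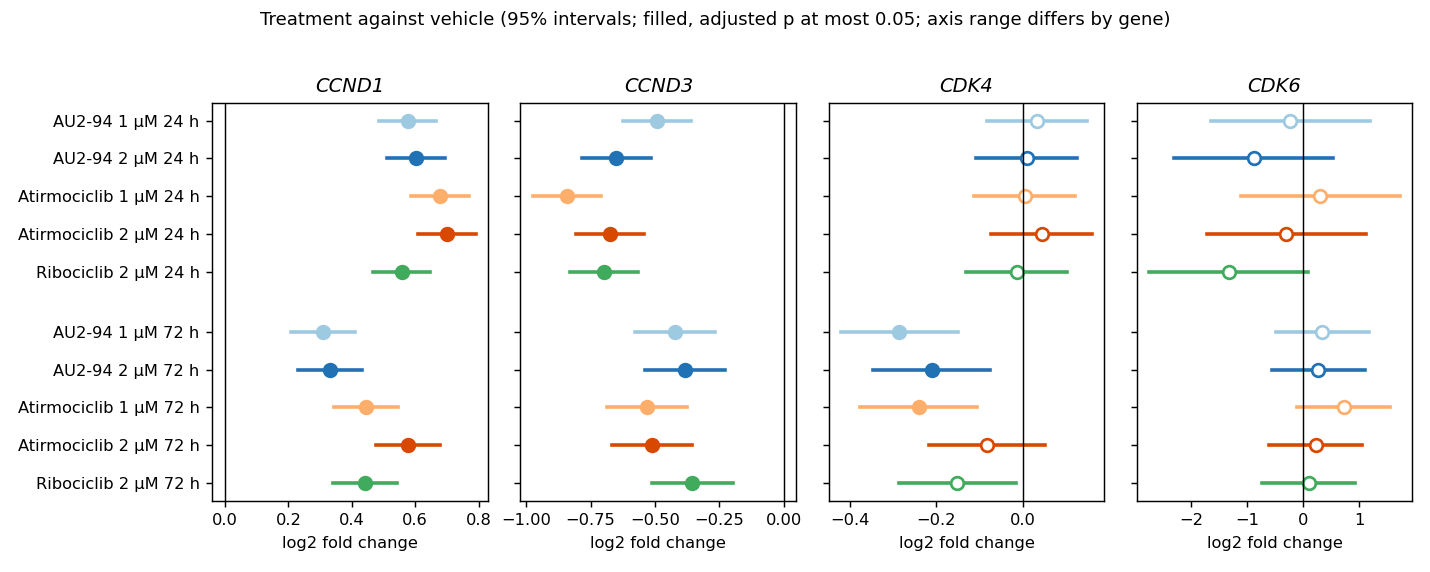
Log2 fold change against vehicle (x axis) with its 95% interval for CCND1, CCND3, CDK4 and CDK6 in the 5 treatments at 24 and 72 h (y axis); filled points passed an adjusted p of 0.05. The intervals for CCND1 lie to the right of 0 and those for CCND3 to the left at both times, 4 of 5 CDK4 intervals lie to the left of 0 at 72 h and none at 24 h, and CDK6 intervals are several times wider.

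The opposite movement of the 2 cyclins changed the make-up of the D-type cyclin transcripts. The ratio of CCND1 to CCND3 in vehicle was 6.98 to 7.18 at 24 h, with 7.33 to 8.22 after 72 h. Treated libraries had ratios of 13.7 to 21.3 and of 11.9 to 17.9 at these times, above every vehicle library in 15 of 15 at each time. The mean ratio was 2.45-fold higher at 24 h and 1.82-fold higher at 72 h (two-sided exact permutation test, 15 treated against 3 vehicle libraries, p = 0.00245 at each time, the smallest that 816 assignments can give, and 0.00368 after adjustment over 6 ratio tests). Per kilobase of exon, CCND1 made up 89.6% ± 0.137 (SD, n = 3) of the D-type cyclin level in vehicle and 95.4% ± 0.530 (n = 15) in treated libraries at 24 h. At 72 h it made up 90.5% ± 0.520 and 94.5% ± 0.633. With the length of the main transcript, the same means were 77.2% and 89.2% at 24 h and 78.9% and 87.1% at 72 h, so the share depends on the length used while its direction does not. The 15 treated libraries are 3 from each of 5 treatments, so the SD of their shares includes differences between treatments. Per kilobase of exon, the treated group means ran from 94.7% (AU2-94 1 µM) to 96.1% (atirmociclib 1 µM) at 24 h. At 72 h they ran from 94.0% (AU2-94 2 µM) to 95.3% (atirmociclib 2 µM). The permutation tests pool the treatments in the same way. Atirmociclib 1 µM at 24 h had the highest mean ratio of CCND1 to CCND3, 20.4, and AU2-94 2 µM at 72 h the lowest of the treated groups, 12.9. The ratio of CDK4 to CCND1 was lower with treatment. It was 0.305 to 0.309 in vehicle against 0.186 to 0.238 in treated libraries at 24 h, and 0.289 to 0.321 against 0.175 to 0.225 after 72 h. All 15 treated libraries were below the vehicle range at both times, with log2 differences of -0.61 and -0.62 (exact permutation test, p = 0.00245 each). Averaged over the 5 treatments, CDK4 changed by 0.015 and CCND1 by 0.62 at 24 h, so the ratio there restates the rise of CCND1. The averages at 72 h were -0.19 and 0.42. For CCND3 the same averages were -0.67 at 24 h and -0.44 at 72 h. CCND1 and CCND3 were each already apart from vehicle in every treated library, in opposite directions, which fixed the permutation p of their ratio in advance. Neither ratio is therefore a result separate from those of the single genes.

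**Figure D3:**
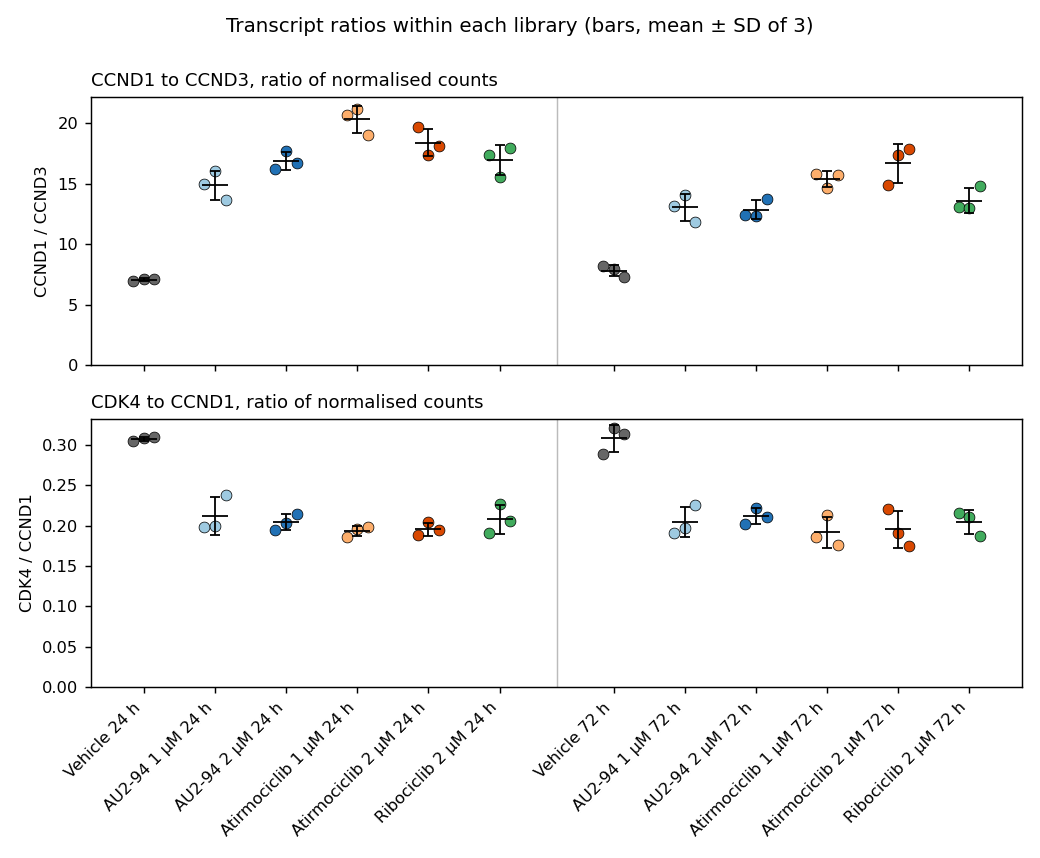
Ratio of normalised counts within each library (linear axes from 0), CCND1 to CCND3 above and CDK4 to CCND1 below, for the 12 groups, with 1 point per library and bars for the mean ± SD of 3. The CCND1 to CCND3 ratio is 6.98 to 8.22 in the vehicle libraries and 11.9 or more in every treated library.

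CCND2, which encodes cyclin D2, was at the edge of detection. It was listed at 0 to 3 normalised counts in 29 of 36 libraries and did not pass the filter for testing (at least 10 in 3 libraries). The 7 libraries above 3 were all 3 of AU2-94 1 µM at 72 h (10.2, 4.54 and 3.42), 1 of ribociclib at 72 h (9.87), and 1 each of AU2-94 2 µM (5.50), ribociclib (4.78) and vehicle (3.001) at 24 h, while AU2-94 2 µM at 72 h was listed at 0 in all 3. The vehicle libraries held 0, 0 and 3.00 at 24 h and 0.652, 1.89 and 0 at 72 h. CCND2-AS1, which overlaps 2.03% of its exon bases on the other strand, was at 1.63 or less in every library. At these levels a difference in CCND2 between groups was not detectable.

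CDK4, the kinase that all 3 compounds inhibit, passed the test in no treatment at 24 h and was lower in 3 of 5 at 72 h. For comparison, 27.8% to 34.8% of all genes passed in either direction at 24 h, and 15.3% to 19.8% were lower at 72 h. In the 3 treatments with a call, 43.7% to 56.1% of genes had a smaller absolute log2 fold change than CDK4. The CDK4 vehicle values at 24 h were 2267, 2328 and 2410. AU2-94 gave 2324, 2288 and 2560 at 1 µM and 2191, 2415 and 2449 at 2 µM. Atirmociclib gave 2323, 2328 and 2374 at 1 µM and 2415, 2490 and 2315 at 2 µM, and ribociclib gave 2199, 2387 and 2352. Of these, 8 lay within the vehicle range, 5 above it and 2 below. The log2 fold change was between -0.014 and 0.043 (SE 0.0553, adjusted p between 0.587 and 0.965), and the widest 95% interval bounds over the 5 treatments were -0.13 and 0.16.

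At 72 h CDK4 vehicle values were 2265, 2590 and 2404, a wider spread than at 24 h. AU2-94 gave 1900, 1985 and 2063 at 1 µM and 2092, 2130 and 2042 at 2 µM, all below the vehicle range. Atirmociclib 1 µM gave 2001, 2151 and 1983, ribociclib 2220, 2238 and 2069, and atirmociclib 2 µM 2508, 2228 and 2125. Of the 15 treated libraries, 1 from atirmociclib 2 µM lay within the vehicle range and 14 lay below it. The log2 fold change was -0.29 with AU2-94 1 µM (SE 0.0643, adjusted p = 0.00213), -0.21 with AU2-94 2 µM (adjusted p = 0.0187) and -0.24 with atirmociclib 1 µM (adjusted p = 0.00578). Ribociclib gave -0.15 (adjusted p = 0.0826) and atirmociclib 2 µM -0.083 (adjusted p = 0.327). The call for AU2-94 2 µM was lost without the second vehicle library (-0.16, adjusted p = 0.102) and without the third AU2-94 2 µM library (-0.19, adjusted p = 0.0632). Ribociclib passed without the first vehicle library (-0.20, adjusted p = 0.0425).

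TSPAN31, a tetraspanin gene on the other strand, shares 1369 exon bases with CDK4, or 44.2% of the CDK4 exon bases, and the strand setting of the counting is not given in the sources used here. TSPAN31 held 195 to 255 normalised counts in vehicle and 231 to 395 in treated libraries at 24 h, with 185 to 231 and 175 to 374 after 72 h. It was higher than vehicle in 4 of 5 treatments at 24 h and 2 of 5 at 72 h, beside 14.3% to 18.6% and 14.2% to 20.9% of all genes. CDK4 was not higher in any treatment. Whether TSPAN31 reads enter the CDK4 values, or offset a change in them, was not tested. No other gene shared a stretch of 100 bases at 98% identity with CDK4, CDK6, CCND3 or CCND1 apart from genes that overlap them.

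In the order of the 12 group means, from vehicle at 72 h (2420 ± 163) down to AU2-94 1 µM at 72 h (1983 ± 81.5), every CDK4 group overlapped its neighbours.

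CDK6, the second kinase partner, was low, and its replicates lay far apart at 24 h. The vehicle libraries held 185, 31.0 and 122 normalised counts. AU2-94 gave 105, 116 and 35.8 at 1 µM and 44.1, 81.3 and 30.5 at 2 µM. Atirmociclib gave 39.6, 214 and 157 at 1 µM and 159, 51.5 and 45.3 at 2 µM, and ribociclib gave 43.8, 26.6 and 36.3. In 7 of the 18 libraries at 24 h CDK6 was above 100 normalised counts, spread over 4 of the 6 groups, and no value fell between 81.3 and 105. The highest library of a group exceeded its lowest by 1.65-fold to 5.97-fold. The within-group SD at 24 h was 0.987 on the log2 scale, larger than that of 97.4% of the 16137 genes tested, against 0.0528 for CCND1, 0.0566 for CCND3 and 0.0638 for CDK4.

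At 72 h vehicle held 14.8, 16.2 and 19.0. AU2-94 gave 14.1, 31.9 and 21.1 at 1 µM and 15.1, 40.9 and 13.1 at 2 µM. Atirmociclib gave 21.2, 40.2 and 25.7 at 1 µM and 17.5, 15.7 and 26.8 at 2 µM, and ribociclib gave 19.1, 20.0 and 14.7. Of the 18 libraries at 24 h, 12 were above every library at 72 h. In vehicle the fall from 24 to 72 h was -2.36 on the log2 scale (SE 0.585, adjusted p = 0.00987), in a comparison that called 3.64% of genes lower. The call was lost without the first vehicle library at 24 h (-1.84, adjusted p = 0.0880) and without the third (-2.13, adjusted p = 0.0544). It also compares wells seeded at different densities. CCND1, CCND3 and CDK4 in vehicle changed by 0.049, -0.094 and 0.050 over the same interval and did not pass the test. No treatment changed CDK6 against vehicle at an adjusted p of 0.05, and 0 of 10 tests passed at an unadjusted p of 0.05 (limma). Fold changes on the log2 scale were -1.33 to 0.31 for 24 h (SE 0.675), with 0.095 to 0.72 for 72 h (SE 0.394). At an unadjusted p of 0.05, 38.1%, 40.1%, 41%, 43.7% and 41.3% of all genes passed at 24 h with AU2-94 1 and 2 µM, atirmociclib 1 and 2 µM and ribociclib, and 42%, 39.6%, 47.4%, 48% and 40.8% at 72 h. Neighbours in the order of the CDK6 group means, from atirmociclib 1 µM at 24 h (137 ± 89.1) to vehicle at 72 h (16.6 ± 2.13), all overlapped. For ribociclib at 24 h the interval was -2.75 to 0.090, and the test passed once the second vehicle library was left out (-2.08, adjusted p = 0.0257). The ratio of CDK4 to CDK6 was 10.9 to 89.8 at 24 h, with 52.1 to 160 after 72 h, and did not differ between treated and vehicle libraries at an adjusted p of 0.05 (exact permutation test, p = 0.475 and 0.0564, adjusted 0.475 and 0.0676).

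Compounds were compared at matched dose and time in 4 pairs at each of 2 times, which made 32 tests over CCND1, CCND3, CDK4 and CDK6, of which 2 passed. As background, atirmociclib against AU2-94 called 4.64% of all genes at 1 µM and 9.44% at 2 µM at 24 h, with 8.24% and 19.8% after 72 h. Ribociclib called 0.0372% (24 h) and 3.34% (72 h) against AU2-94, and 4.64% and 9.18% against atirmociclib. CCND3 was lower with atirmociclib than with AU2-94 at 1 µM and 24 h, by -0.35 on the log2 scale (95% interval -0.48 to -0.22, adjusted p = 0.00198), and all 3 atirmociclib libraries were below all 3 AU2-94 libraries. The call was lost in a fit of these groups alone (adjusted p = 0.0508). CCND1 was higher with atirmociclib than with AU2-94 at 2 µM and 72 h, by 0.25 (interval 0.15 to 0.35, adjusted p = 0.00115), again without overlap, and the call was lost under quantile normalisation (0.13, adjusted p = 0.0588). At the other dose of the same time, these differences were -0.026 for CCND3 (interval -0.16 to 0.11) and 0.14 for CCND1 (interval 0.034 to 0.24, adjusted p = 0.0983). Ribociclib against AU2-94 at 2 µM gave no passing test. Its intervals were -0.14 to 0.046 for CCND1, -0.18 to 0.085 for CCND3 and -0.14 to 0.093 for CDK4 at 24 h, and at 72 h they were 0.0096 to 0.21, -0.13 to 0.18 and -0.076 to 0.19. Ribociclib against atirmociclib at 2 µM gave CCND1 differences of -0.14 at both times (adjusted p = 0.0729 and 0.0868). For CDK6 each pair's interval spanned 0 and was at least as wide as -0.88 to 0.78, so a difference of the size seen in CCND1 was not detectable there.

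Raising the dose from 1 to 2 µM of AU2-94 or atirmociclib changed none of the 4 tested genes at an adjusted p of 0.05 in limma, in 16 tests over both times. The dose comparisons called 0.409% of all genes for AU2-94 and 0.0124% for atirmociclib at 24 h, and 0% and 2.19% at 72 h. At an unadjusted p of 0.05, 2 of the tests passed at 24 h and 2 at 72 h, against 8.14% and 8.87% of all genes at 24 h and 4.48% and 15.9% at 72 h. At 24 h both were CCND3, with a log2 difference of 2 from 1 µM of -0.16 for AU2-94 (interval -0.29 to -0.027, adjusted p = 0.512) and of 0.17 for atirmociclib (interval 0.034 to 0.30, adjusted p = 0.466). At 72 h they were CCND1 (0.13, interval 0.031 to 0.23, adjusted p = 0.173) and CDK4 (0.16, interval 0.024 to 0.29, adjusted p = 0.228) with atirmociclib.

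The sizes of the treatment effects differed between times in 8 of 20 tests. The same test called 21.6% of all genes with AU2-94 1 µM, 18.5% with AU2-94 2 µM, 21.9% with atirmociclib 1 µM, 21.6% with atirmociclib 2 µM and 20.2% with ribociclib. The rise of CCND1 was smaller at 72 h than at 24 h with AU2-94 at 1 µM (-0.27, SE 0.0653, adjusted p = 0.00341), AU2-94 at 2 µM (-0.27, adjusted p = 0.00303) and atirmociclib at 1 µM (-0.23, adjusted p = 0.00973). The fall of CCND3 was smaller at 72 h with AU2-94 2 µM (0.27, SE 0.0919, adjusted p = 0.0400), atirmociclib 1 µM (0.31, adjusted p = 0.0137) and ribociclib (0.34, adjusted p = 0.00730). CDK4 became lower relative to vehicle with AU2-94 1 µM (-0.32, SE 0.0841, adjusted p = 0.00622) and atirmociclib 1 µM (-0.25, adjusted p = 0.0339). With atirmociclib 2 µM none of the genes passed this test, and the CCND1 difference there was -0.12 (interval -0.25 to 0.012). The 3 CCND1 calls were lost under quantile normalisation (-0.15 to -0.13, adjusted p between 0.107 and 0.169). The CCND3 call with AU2-94 2 µM held in 8 of 12 other settings of the analysis (largest adjusted p = 0.102), and was lost after correction for GC content and length (adjusted p = 0.0954) and without any 1 of 9 libraries (adjusted p between 0.0552 and 0.128), which were 2 AU2-94 2 µM libraries of each time, the 3 vehicle libraries at 24 h and the first and second at 72 h. The CCND3 call with atirmociclib 1 µM held in 10 of 12 settings, and was lost after the same correction (adjusted p = 0.0604) and without the second atirmociclib library at 24 h (adjusted p = 0.0511). The CDK4 call with atirmociclib 1 µM held in 9 of 12 settings (largest adjusted p = 0.0785), the CCND1 call in 10 of 12 (0.143), and the CDK4 call was lost without any 1 of 7 libraries (adjusted p between 0.0526 and 0.119), namely 2 atirmociclib libraries of each time, the first and second vehicle libraries at 24 h and the second at 72 h. These comparisons carry the difference in seeding density along with that in time.

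**Figure D4:**
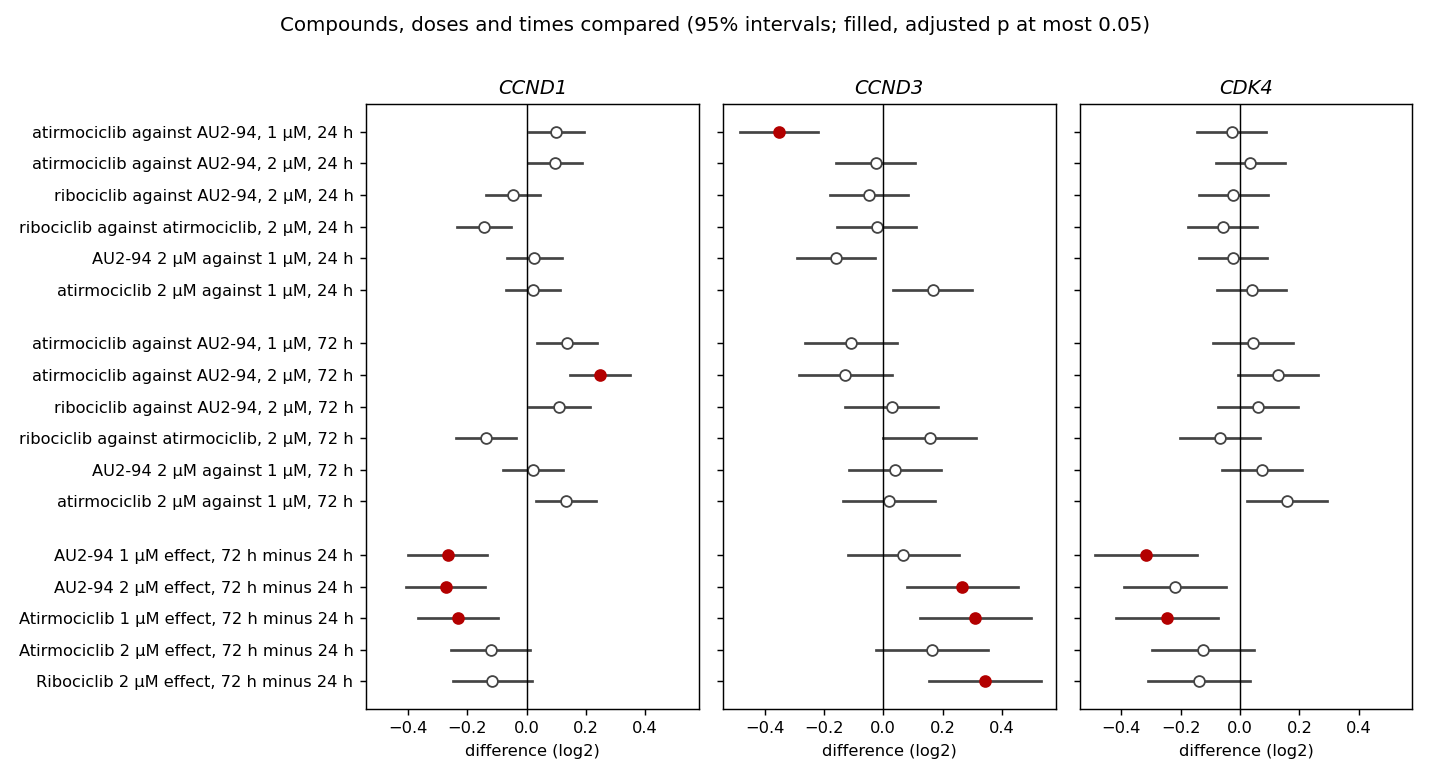
Log2 difference (x axis) with its 95% interval for CCND1, CCND3 and CDK4 in the comparisons between compounds, between doses and between 72 h and 24 h (y axis); filled points passed an adjusted p of 0.05. Of the comparisons between compounds 1 point is filled for CCND1 (0.25) and 1 for CCND3 (-0.35), no dose point is filled, and 8 filled points lie among the time comparisons.

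The proteins that hold cyclin D-CDK4/6 in check are the INK4 family, which bind the kinase, and the CIP/KIP family. Of 7 genes, all tested, none rose, while 3 or 4 fell with each treatment at 24 h and 3 to 5 after 72 h. For comparison, 13.5% to 16.2% of all genes were called lower (24 h) and 15.3% to 19.8% (72 h), and 14.3% to 18.6% and 14.2% to 20.9% were called higher. The list medians were -0.69 to -0.41 at 24 h, with -0.80 to -0.12 after 72 h, against medians of all genes within 0.0083 of 0. CDKN2C, which encodes an INK4 inhibitor, fell under all 5 treatments from a mean of 417 in vehicle to 83.2 in treated libraries at 24 h, with 421 and 136 after 72 h. Its log2 fold changes were -3.14 to -1.58 and -2.73 to -1.11 at these times. CDKN2A, the INK4A and ARF gene, fell under all 5 too, from 466 to 309 at 24 h, with 526 and 289 after 72 h. CDKN1A, which encodes the CIP/KIP member p21, fell under all 5 treatments at 72 h, from 2943 to 1906, and in 4 of 5 at 24 h. CDKN1B, encoding p27, a CIP/KIP member that also helps cyclin D-CDK4 to assemble, passed in none of 5 treatments at 24 h and fell in 2 of 5 at 72 h.

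Among 10 genes for substrates of the kinase and the next step of the pathway, 6 to 8 fell and 1 rose with each treatment at 24 h, while 5 to 7 fell and 1 or 2 rose after 72 h, against 13.5% to 19.8% of all genes lower and 14.2% to 20.9% higher over both times. CCNE2, which encodes a cyclin that partners CDK2 after cyclin D has acted, fell from 643 to 112 at 24 h, with 553 and 218 after 72 h. E2F2 fell from 506 to 97.1 (544 and 218 after 72 h) and E2F1 from 1008 to 451 (1026 and 557). These 3 genes fell under all 5 treatments at both times. RBL2, which encodes the RB relative p130 of resting cells, was the gene that rose under all 5, from 2285 to 3255 at 24 h, with 2119 and 2875 after 72 h. The list medians were -0.99 to -0.47 (24 h) and -0.94 to -0.44 (72 h). RB1 itself fell in 2 of 5 treatments at 24 h and 1 of 5 at 72 h, with no log2 fold change beyond -0.36.

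The 15 genes for folding, activation and breakdown of the complex had list medians of -0.035 to 0.097 (24 h) and -0.077 to 0.013 (72 h). With each treatment 2 to 5 rose and 1 or 2 fell at 24 h, while 1 or 2 rose and 1 to 4 fell after 72 h, beside 14.2% to 20.9% of all genes higher and 13.5% to 19.8% lower over both times. HSP90AA1, 1 of the 2 HSP90 chaperone genes in the list, fell under all 5 treatments, from 36788 to 28030 at 24 h, with 36585 and 30792 after 72 h. The other, HSP90AB1, had means of 44346 in vehicle and 44537 in treated libraries at 24 h. It rose in 1 of 5 and fell in 0 of 5 at 24 h, and fell in 4 of 5 at 72 h. CDC37, which folds CDK4 together with HSP90, rose in 3 of 5 at 24 h and passed in none at 72 h. CDK7, the kinase of the complex that phosphorylates and activates CDK4, rose under all 5 at 24 h (from 299 to 432) and in 3 of 5 at 72 h. Its partners in that complex did not follow throughout. CCNH rose in 3 of 5 at 24 h and passed in none at 72 h. MNAT1 passed in none at 24 h and fell in 3 of 5 at 72 h. FBXO31, a ubiquitin ligase receptor for cyclin D1, rose under all 5 at 72 h (from 711 to 924) and in 4 of 5 at 24 h. AMBRA1, the receptor through which all 3 D-type cyclins are degraded, passed in no treatment at either time.

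Of 15 genes for transcription factors known to act on D-type cyclin genes, 14 were tested, and 3 to 6 rose and 1 to 3 fell with each treatment at 24 h. After 72 h, 2 to 6 rose and 1 to 3 fell, beside 14.2% to 20.9% of all genes higher and 13.5% to 19.8% lower over both times, and the list medians were 0.081 to 0.19 (24 h) and -0.10 to 0.0040 (72 h). FOSL2, a subunit of AP-1, rose under all 5 treatments at both times, from 631 to 848 at 24 h, with 429 and 941 after 72 h. STAT3 rose under all 5 at 24 h, from 4361 to 5710, and in 3 of 5 at 72 h. STAT5A rose under all 5 at 72 h, from 7.87 to 26.8, and in 3 of 5 at 24 h. FOS, the immediate early AP-1 subunit, fell under all 5 at 72 h, from 235 in vehicle to 18.6, and was higher than vehicle in 2 of 5 treatments at 24 h, when the means were 15.4 in vehicle and 70.5 in treated libraries. CTNNB1, encoding beta-catenin, rose in 4 of 5 treatments at 24 h and passed in none at 72 h.

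**Figure D5:**
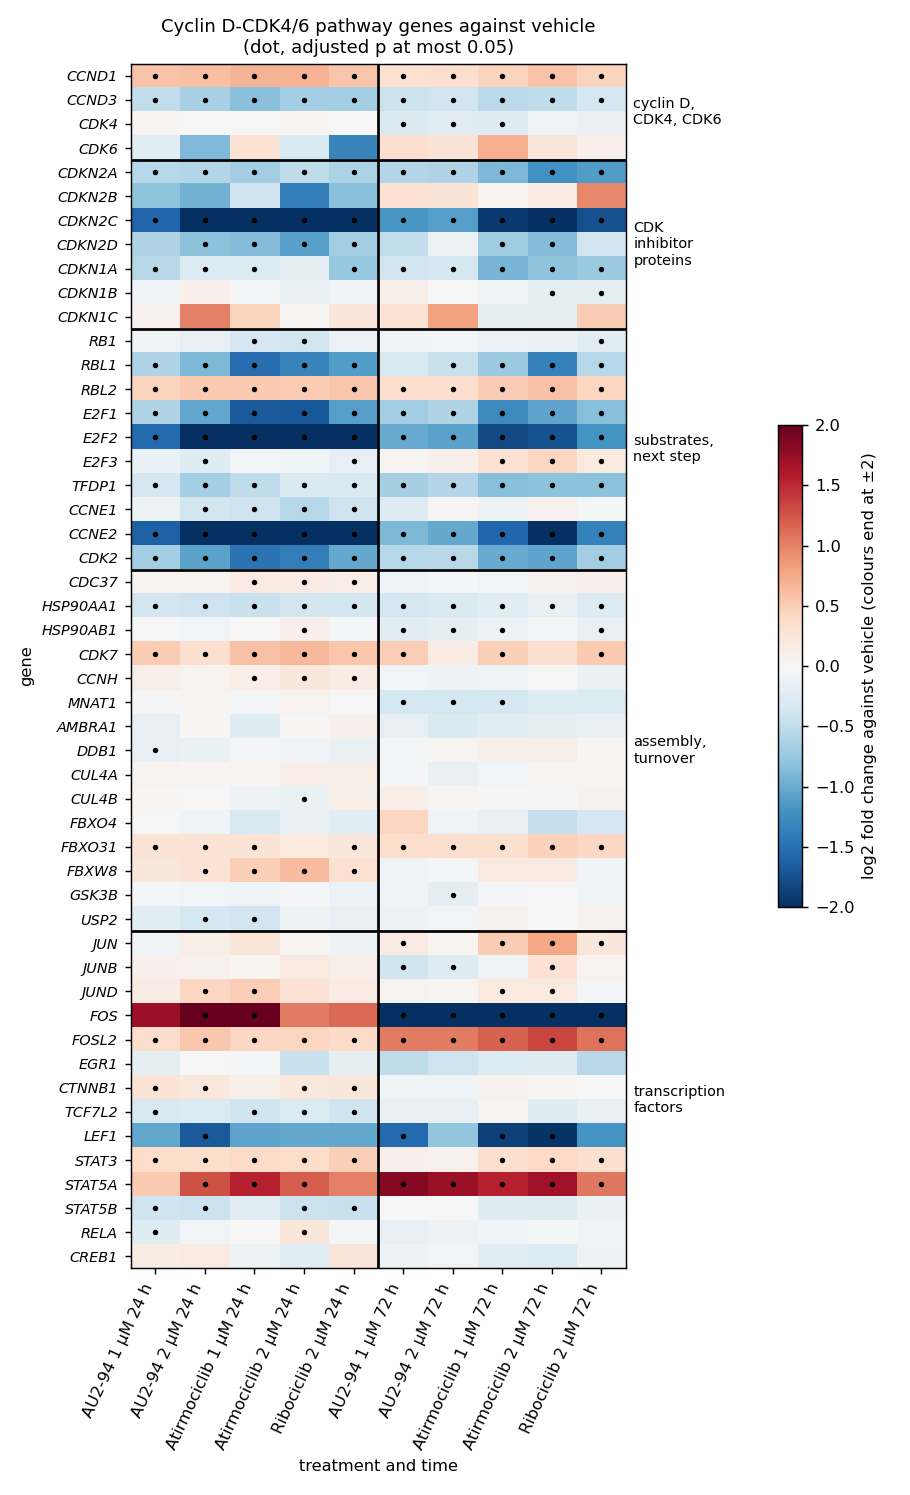
Log2 fold change against vehicle (colour, ending at ±2) of the tested cyclin D, CDK4 and CDK6 genes and of 4 lists of pathway genes (rows) in the 5 treatments at 24 and 72 h (columns); a dot marks an adjusted p of at most 0.05. CCND1 and RBL2 rows are red throughout, and CCND3, CDKN2C, E2F1, E2F2 and CCNE2 rows are blue throughout.

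Across the 12 group means, the genes whose pattern was most like that of a member were found by Pearson correlation over 11923 genes, as a description with no test. The 12 groups share vehicle controls and time points. For CCND1 they were CIPC, a partner of the clock protein CLOCK (0.981), CASTOR1, an arginine sensor of mTORC1 (0.976), and ARHGAP45 (0.969). For CCND3 they were DDX39A, an RNA helicase (0.970), DGCR8, the partner of DROSHA in microRNA processing (0.967), and FIGNL1, a recombination factor (0.964). CDK4 was most like ETF1, the translation release factor (0.970), MED27, a Mediator subunit (0.964), and ID3, an inhibitor of helix-loop-helix factors (0.961). For CDK6, whose group means follow its scattered libraries, the values were lower, with PRKAR1B at 0.926, ZSCAN16-AS1 at 0.905 and FAM50B at 0.898.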

How the data were processed

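RNA from 36 LNCaP cultures, 3 for each of 12 groups, was sequenced by the authors, who used STAR 2.6.1d and GRCh38 in an nf-core pipeline and then DESeq2. The authors deposited 1 table of normalised counts (unit signal, scaled between libraries); the counting tool, strand setting and scaling are not given in the sources used here. Values are not whole numbers (11.5% to 50.5% of low values lay within 0.02 of whole steps), so raw counts were not recovered, counting intervals were not computed, and no count model was run. The study describes the 3 cultures of a group as biological replicates.

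Normalised counts were analysed with limma 3.58.1 (R 4.3.3, trended empirical Bayes) on log2(value + 1), for genes at 10 or more in at least 3 libraries of a fit, with Benjamini-Hochberg adjustment over all genes of a comparison. The 18 libraries of a time point were fitted together, and all 36 for comparisons of times. Fold changes of low genes are understated by the added 1. The method was tested on simulated data for AU2-94 1 µM at 24 h (16137 genes, 200 changed), where 72% of changes of 0.5 and 96% of changes of 1 (log2) were recovered. Of the calls, 92.8% were planted changes. The noise was drawn from a normal distribution, and changes were planted only in genes well above the filter level in vehicle. These rates therefore do not apply to low genes such as CDK6. Ratios were tested with exact permutation tests (scipy).

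GEO's labels give the replicate as a batch, which pairs same-numbered libraries across groups. Deviations of same-numbered libraries correlated by 0.0018 on average at 24 h (-0.09 to 0.112 over 45 pairs) and by -0.0022 at 72 h (-0.08 to 0.05). The replicate number was used as a block only in an alternative fit, as the study's methods name no covariate.

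Gene symbols, exons and lengths came from GENCODE release 44. The members and the gene lists were chosen with earlier results of these data known. Named were the 5 members, genes overlapping their exons, the 3 genes most correlated with each member among genes with a mean of at least 50, and from each list at most 3 genes per time and direction past the threshold in all 5 treatments, by mean change. CDKN1B, RB1, AMBRA1, CTNNB1, CCNH, MNAT1, HSP90AB1 and CDC37 were added after their values were seen. The marker sums leave out 1 luminal marker that is not reported here.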

Additional observations from a re-analysis of the deposited data

Results flagged for a closer look

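The effect of a treatment differed between 24 and 72 h for 8 pairs of a gene and a treatment, by a test of the difference itself (limma, all 36 libraries, adjusted p of at most 0.05). For CCND1 the log2 fold change at 72 h minus that at 24 h was -0.2656 with AU2-94 1 µM, -0.2718 with AU2-94 2 µM and -0.231 with atirmociclib 1 µM. For CCND3 it was 0.2666 with AU2-94 2 µM, 0.3102 with atirmociclib 1 µM and 0.3428 with ribociclib 2 µM. For CDK4 it was -0.3183 with AU2-94 1 µM and -0.2457 with atirmociclib 1 µM. All 5 effects of a time point share 3 vehicle libraries, and the vehicle levels of the 3 genes did not pass the test between times. Seeding density differed together with time, so the 2 cannot be told apart.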

How the results depend on the processing

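Over 1506 refits of single genes under other settings (pseudocount, filter, scaling, libraries in the fit, trend, GC content and length, replicate block), 1487 kept their side of the threshold, 16 lost and 3 gained significance, and no called change reversed. Over 936 refits without 1 library the numbers were 909, 22 and 5. The sign of a difference that was not called changed in 33 and 45 of these refits. CCND1 was higher and CCND3 lower in all 95 refits per time. Adding the replicate block changed no call on these genes and left 8 of 20 changes of effect with time. For CDK4 at 72 h, the AU2-94 2 µM call was lost under quantile normalisation (-0.16, adjusted p = 0.0547) and ribociclib passed under upper-quartile scaling (-0.17, adjusted p = 0.0363). Tests passing between compounds fell from 1 to 0 at 24 h with only the compared groups in the fit and from 1 to 0 at 72 h under quantile normalisation, and rose to 2 with equal totals; without single libraries the count at 72 h was 1 or 2, with 2 without the second atirmociclib 1 µM library. Changes of effect with time fell from 8 to 4 under quantile normalisation, which lost the 3 for CCND1 and 1 for CDK4, and to 6 with upper-quartile scaling, without a filter and with the GC and length correction. CDK4 with AU2-94 2 µM passed that test without the first AU2-94 2 µM library at 24 h (adjusted p = 0.0261) or the first vehicle library at 72 h (adjusted p = 0.0316). The vehicle time change of CDK6 was not tested with a mean of at least 100, which leaves 0 calls, and the count was 0 or 1 without single libraries. The ratio of CCND1 to CCND3 with AU2-94 1 µM alone was 1.07 (log2 difference from vehicle) at 24 h and 0.73 at 72 h, with AU2-94 2 µM alone 0.71 at 72 h, with atirmociclib 1 µM alone 1.52 and 0.98, and with atirmociclib 2 µM alone 1.09 at 72 h, where 3 against 3 libraries allow no exact p under 0.10. The exact p of the ratio of CDK4 to CDK6 at 72 h, 0.0564 before adjustment, was at most 0.05 before adjustment with a pseudocount of 8 (-0.4509, exact p = 0.0294) and without the third AU2-94 2 µM (exact p = 0.0294), the first or second atirmociclib 2 µM (exact p = 0.0471 and 0.05) or the third vehicle library (exact p = 0.0294), and the difference lay between -0.6209 and -0.4599 without single libraries. Where no cause is given above, the cause was not tested. The sequencing depth behind the values is unknown, so no counting error can be given for the low values of CCND2 and CDK6.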
